A study of Mus musculus with 4 samples.

Results

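The transcripts described here come from 10 genes of the JmjC histone demethylases, chosen by name from the 22138 genes of the table: Kdm3a, Kdm3b, Kdm4a, Kdm4b, Kdm4c, Kdm4d, Kdm5a, Kdm5b, Kdm6a and Kdm6b. They were measured by RNA-seq in TT2 mouse embryonic stem cells, a C57BL/6xCBA line that the labels give as female, grown without feeders in serum with LIF. Cells received control siRNA (n = 2) or Hnrnpk siRNA (n = 2), at 100 nM and then, 24 hours later, at 50 nM, and were then harvested. The treatment protocol counts about 72 hours to harvest from the second dose, while the design text gives 72 hours after transfection without saying which one, so the time of exposure is uncertain by the 24 hours between the doses. No group carries a further allele or agent in the labels, the line is the only one studied, and the design text calls the libraries of a group biological replicates without saying whether they came from separate cultures, so p-values measure the spread between these libraries only. The title of the series concerns hnRNP K, which binds nucleic acids, and silencing by SETDB1, which writes trimethylation on lysine 9 of histone H3. The comparison asks which transcripts of enzymes that erase this and other histone marks changed when Hnrnpk was depleted.

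JmjC demethylases remove methyl groups from histone lysines with iron, oxygen and 2-oxoglutarate as cofactors, and so oppose the methyltransferases that write the marks. The KDM3 family acts on mono- and dimethylated H3K9, the KDM4 family mainly on di- and trimethylated H3K9 and in part on H3K36, the KDM5 family on H3K4 and the KDM6 family on H3K27. H3K9 and H3K27 methylation accompany silent chromatin, and H3K4 trimethylation marks active promoters. In embryonic stem cells, Kdm3a and Kdm4c have been described as positive regulators of pluripotency genes.

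The library labels were checked first. Hnrnpk had 236 and 226 RPKM (reads scaled by transcript length and by library size) after control siRNA and 68.0 and 70.5 RPKM after Hnrnpk siRNA. The 8 embryonic stem cell markers summed to 2893 to 3048 RPKM in the control libraries and 3834 to 4184 RPKM after Hnrnpk siRNA, and most of that difference came from Dppa5a, which rose from 1320 and 1276 to 2164 and 2451 RPKM. Nanog was called higher as well, Sox2 (231 and 195 to 147 and 146 RPKM) and Tdgf1 (236 and 231 to 190 and 205 RPKM) were called lower, and Pou5f1, Zfp42, Esrrb and Klf4 were not called. Of 6 fibroblast markers, 4 (Col1a2, Col3a1, Postn and Lum) were under 0.5 RPKM in every library. The other 2 were called lower after Hnrnpk siRNA, Thy1 at 6.90 and 5.20 beside 2.22 and 2.28 RPKM (log2 change -1.24) and Col1a1 at 2.46 and 2.68 beside 1.73 and 1.86 RPKM (-0.42). The 4 Y-linked genes examined summed to 0.850 to 0.979 RPKM, each under 0.5 RPKM in every library. Markers of other embryonic cell types moved with the groups too. The 6 primitive endoderm markers summed to 5.17 and 5.20 RPKM in the controls and 30.3 and 30.9 RPKM after Hnrnpk siRNA, the 7 trophectoderm markers to 30.5 and 35.96 RPKM in the controls and 68.5 to 73.1 RPKM, and 6 two-cell stage genes to 0.710 to 0.787 and 39.4 to 46.3 RPKM. Most of the trophectoderm sum came from Krt8 (10.8 and 13.7 to 21.2 and 23.7 RPKM) and Krt18 (15.8 and 18.9 to 30.9 and 33.2 RPKM). Elf5 was lower after Hnrnpk siRNA, at 0.105 and 0.109 beside 0.0608 and 0.0705 RPKM, and the rest were higher. The part of these cell type markers in the results that follow was not tested. In bulk RNA a change in the share of a cell type and a change of RNA per cell cannot be told apart. Values read as log2(RPKM + 0.5) correlated across the genes tested at 0.997 between controls and 0.999 between Hnrnpk siRNA libraries, and the relative depth of the libraries was 1, 0.982, 0.891 and 0.882 in the order control 1 and 2, Hnrnpk siRNA 1 and 2.

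The promoters shown next were picked because they belong to the members that passed the test, Kdm3a and Kdm6a, which rose, and Kdm4c and Kdm5b, which fell. Kdm3a and Kdm4c have further windows, and for each of them the window shown is the only one with a match. Each is the window of 250 bases before a RefSeq start site (GRCm38.p6), written 5′ to 3′ on the strand of the gene. Capitals mark ACGTG or GCGTG, the core letters of the hypoxia response element, or the same letters read on the other strand. ACGTG is also part of the E-box CACGTG, where both strands match. The windows are chr6:71632918-71633167 (minus) for Kdm3a, chrX:18162325-18162574 (plus) for Kdm6a, chr4:74251629-74251878 (plus) for Kdm4c and chr1:134559928-134560177 (plus) for Kdm5b.
Kdm3a: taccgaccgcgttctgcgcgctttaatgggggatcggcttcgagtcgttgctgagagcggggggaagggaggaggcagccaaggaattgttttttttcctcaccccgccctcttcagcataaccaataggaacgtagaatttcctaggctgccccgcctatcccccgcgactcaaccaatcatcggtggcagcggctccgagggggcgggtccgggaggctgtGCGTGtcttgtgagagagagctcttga
Kdm6a: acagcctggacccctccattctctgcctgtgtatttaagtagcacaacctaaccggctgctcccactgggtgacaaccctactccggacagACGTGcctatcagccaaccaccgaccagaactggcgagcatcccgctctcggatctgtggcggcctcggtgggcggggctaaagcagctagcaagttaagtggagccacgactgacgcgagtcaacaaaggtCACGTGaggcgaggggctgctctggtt
Kdm4c: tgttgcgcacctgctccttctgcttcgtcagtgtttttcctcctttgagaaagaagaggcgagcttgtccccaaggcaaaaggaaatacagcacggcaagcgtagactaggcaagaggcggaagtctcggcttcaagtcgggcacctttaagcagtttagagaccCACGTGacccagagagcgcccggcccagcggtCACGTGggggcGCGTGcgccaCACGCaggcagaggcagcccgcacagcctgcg
Kdm5b: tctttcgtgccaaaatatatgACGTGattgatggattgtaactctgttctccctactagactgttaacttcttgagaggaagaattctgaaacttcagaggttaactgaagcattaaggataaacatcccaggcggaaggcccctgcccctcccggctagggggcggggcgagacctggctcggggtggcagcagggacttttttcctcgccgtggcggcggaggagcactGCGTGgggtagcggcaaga

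In these windows the letters occurred once for Kdm3a, 27 bases before the start, in 2 separate stretches for Kdm6a, in 4 for Kdm4c and in 2 for Kdm5b. Among the windows shown, matches lay beside genes that rose and genes that fell. Since the windows of Kdm3a and Kdm4c shown are the ones with a match, nothing about called members follows from this. Of all 32851 such windows in the RefSeq table, 38.6% held at least 1 match. Windows on chromosome 18, where Kdm3b lies, were left out of the member count, though not out of the 32851. Apart from these, the table gave 9 windows for 6 of the members, of which 4 held a match. The other 2 windows of Kdm3a, the other window of Kdm4c and the windows of Kdm4a and Kdm4d held none. A match describes letters only and is no evidence of binding.

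The members differed widely in level. Kdm5b, an H3K4 demethylase, had the highest level in the control libraries at 119 ± 3.72 RPKM (SD, n = 2), above 95.5% of the genes tested. It was followed by the H3K9 demethylases Kdm3a at 37.3 ± 0.680 RPKM and Kdm3b at 27.8 ± 0.0917 RPKM (SD, n = 2 each). Kdm4a (19.7 ± 1.79 RPKM) and Kdm6b (19.3 ± 0.356 RPKM) came next, and their control libraries overlapped. Kdm4c, Kdm6a, Kdm4b and Kdm5a lay between 16.4 and 9.06 RPKM in that order, with no overlap of control libraries between neighbours. Kdm4d was far below the rest at 0.0518 ± 0.0135 RPKM (SD, n = 2). Levels in RPKM are per length, but comparisons between genes are approximate, since the annotation behind the lengths is not given.

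**Figure D1:**
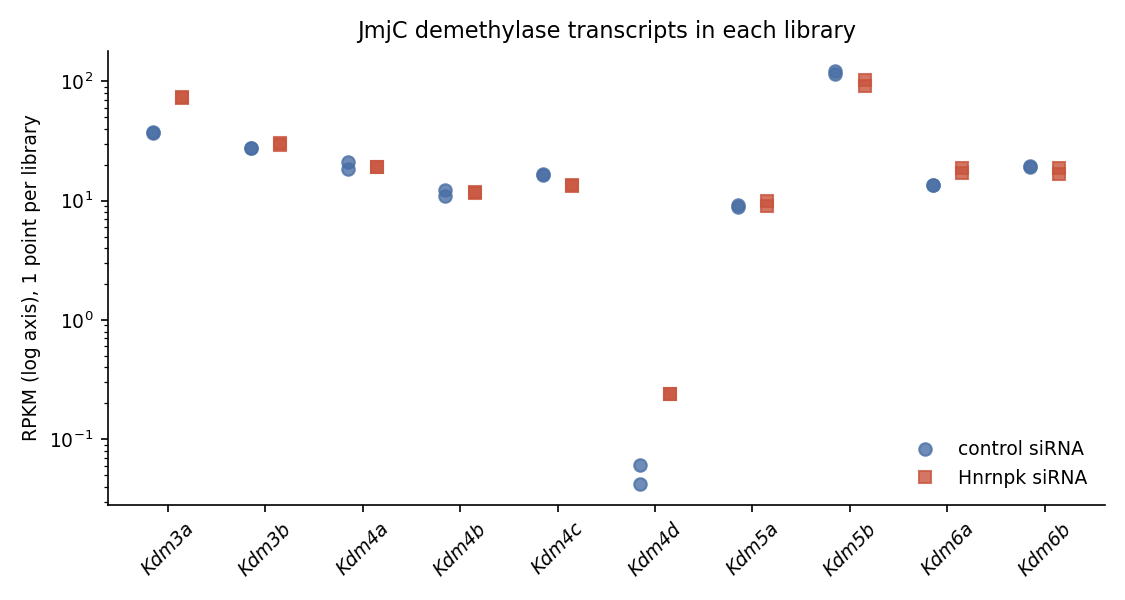
RPKM of the 10 members in each of the 4 libraries, on a log axis (circles, control siRNA; squares, Hnrnpk siRNA; 1 point per library). Kdm3a and Kdm4d show the widest gap between the groups, and the 2 Hnrnpk siRNA values of Kdm3a, 73.7 and 71.9 RPKM, lie above its control values of 36.8 and 37.8 RPKM.

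Of the 10 members, 9 averaged 0.5 RPKM or more and were tested, and limma called 4 of them, a call being an adjusted p (Benjamini-Hochberg) below 0.05. Kdm3a and Kdm6a were higher and Kdm4c and Kdm5b lower after Hnrnpk siRNA. Among all 12486 genes tested, 67.2% were called, 32.2% higher and 35.0% lower, which stands beside 44.4% of the tested members. The median log2 change of the 9 members was 0.01, beside -0.01 for all genes tested, and the median size of the change was 0.11 for the members and 0.32 for all genes. The groups did not overlap for 6 of the 9, beside 84.7% of all genes tested. Kdm3a, Kdm3b and Kdm6a had both treated libraries on the upper side (41.2% of all genes tested) and Kdm4c, Kdm5b and Kdm6b on the lower side (43.5%). With the trend of each library on GC content removed, 4 members were called higher (Kdm3b and Kdm4b in addition), and with the trend on transcript length removed, 4 as well (Kdm3b and Kdm5a in addition).

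**Figure D2:**
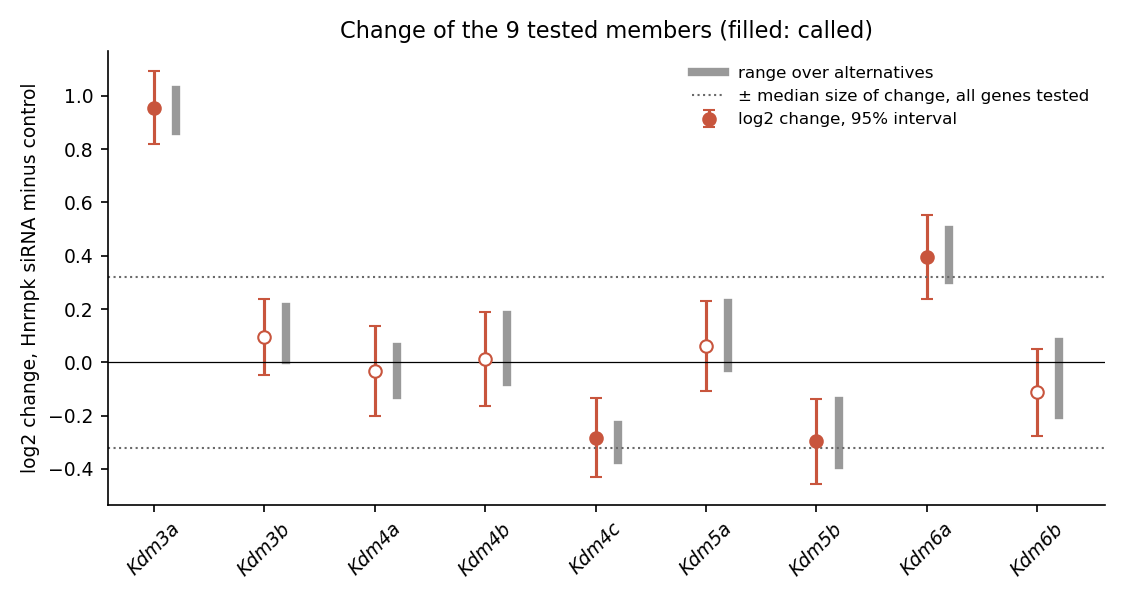
Log2 change (Hnrnpk siRNA minus control, log2(RPKM + 0.5) scale) of the 9 tested members with 95% intervals from limma; filled points were called, the grey bar beside each spans the 16 alternative settings, and the dotted lines mark the median size of change over all genes tested, 0.32. Kdm3a (0.96) and Kdm6a (0.39) lie above that size, and Kdm4c (-0.28) and Kdm5b (-0.30) just inside it.

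Kdm3a, which demethylates H3K9me1 and H3K9me2 and is itself a hypoxia-inducible gene, changed most among the tested members. Its level was 36.8 and 37.8 RPKM in the controls and 73.7 and 71.9 RPKM after Hnrnpk siRNA. Both treated libraries were nearly double the controls, and replicates differed by far less than the groups. The ratio of the means was 1.95, which on the log2 scale was a change of 0.96 (SE 0.0604, limma adjusted p = 1.31e-06). Among all genes tested, 4.48% had a higher log2 change. It was called in all 16 alternatives, with log2 changes from 0.87 to 1.02.

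Kdm3b, the close paralog with the same substrate class, had 27.9 and 27.8 RPKM after control siRNA and 30.5 and 29.0 RPKM after Hnrnpk siRNA. The groups did not overlap, but the log2 change of 0.10 (95% interval -0.05 to 0.24, limma adjusted p = 0.205) did not pass the test. It passed with the GC trend removed (0.17, adjusted p = 0.0398) and with the length trend removed (0.21, adjusted p = 0.00719), while the alternatives together spanned adjusted p-values from 0.00719 to 0.924. The ratio of Kdm3a to Kdm3b in RPKM was 1.32 and 1.36 in the controls and 2.42 and 2.48 after Hnrnpk siRNA, so the balance between the paralogs moved toward Kdm3a in both treated libraries. The exact permutation p of this ratio was 0.333, the smallest that 2 libraries against 2 can give. The 3468 exonic bases that Kdm3b shares with the noncoding RNA Gm26538 on the opposite strand make its level uncertain, since no source used here states whether the libraries keep strand.

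The third gene of the family, Jmjd1c, was not among the 10 and fell. It had 25.6 and 25.9 RPKM in the controls and 19.6 and 17.5 RPKM after Hnrnpk siRNA (log2 change -0.47, SE 0.0725, limma adjusted p = 0.000327). A second row of the table carries the same symbol under another identifier and was not used.

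Kdm4a to Kdm4d demethylate H3K9me3, the mark that SETDB1 writes, and Kdm4a to Kdm4c also act on H3K36me3. Kdm4c was the member of this family that passed the test. Its level was 16.3 and 16.6 RPKM in the controls and 13.3 and 13.5 RPKM after Hnrnpk siRNA, and replicates lay closer together than the groups. On the log2 scale it fell by 0.28 (SE 0.0654, limma adjusted p = 0.00371), and was called lower in all 16 alternatives, from -0.37 to -0.23.

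Kdm4a had 18.4 and 20.9 RPKM after control siRNA and 19.3 and 19.0 RPKM after Hnrnpk siRNA. The treated libraries lay inside the spread of the controls (log2 change -0.03, 95% interval -0.20 to 0.14, limma adjusted p = 0.712). Kdm4b had 12.4 and 10.9 RPKM in the controls and 11.6 and 11.8 RPKM after Hnrnpk siRNA. Its groups overlapped as well (log2 change 0.01, 95% interval -0.16 to 0.19, limma adjusted p = 0.899), but removing the GC trend gave 0.18 (adjusted p = 0.0420), while the alternatives together spanned adjusted p-values from 0.0303 to 0.9998. The ratio of Kdm4a to Kdm4c was 1.13 and 1.26 in the controls and 1.45 and 1.41 after Hnrnpk siRNA.

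Kdm4d, a short member that lacks the reader domains of its paralogs and is known for its expression in testis, was the low one. Its values were 0.0422 and 0.0614 RPKM in the controls and 0.241 and 0.237 RPKM after Hnrnpk siRNA. Both treated libraries were several times above both controls, a ratio of means of 4.61. As 1 unit served the most frequent low product of RPKM and length among single-exon genes of the library. With the transcript length of GENCODE, the Kdm4d levels correspond to about 14 and 20 units in the controls and 72 and 70 units after Hnrnpk siRNA. Whether a unit is a read or a pair is not known. Below 0.5 RPKM on average, the gene was not tested. Without that filter its log2 change on the log2(RPKM + 0.5) scale was 0.42 (SE 0.0273, limma adjusted p = 0.00103, 2.57 prior degrees of freedom). With 0.1 RPKM added in place of 0.5 the value was 1.16. Every value of the gene lay below the added 0.5 RPKM, which compresses the spread between libraries. That SE and p-value therefore do not measure the spread of so few units. In each library Kdm4d remained the lowest of the 10 members, at most 0.0848% of their summed RPKM.

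Among the H3K4 demethylases, Kdm5b had 121 and 116 RPKM in the controls and 102 and 91.4 RPKM after Hnrnpk siRNA. The treated libraries were both lower, although they differed from each other by more than the controls did. On the log2 scale Kdm5b fell by 0.30 (SE 0.0713, limma adjusted p = 0.00455). It was called lower in all 16 alternatives, but the value shrank to -0.15 (adjusted p = 0.0394) when the length trend was removed. Kdm5b made up 44.1% and 42.7% of the summed RPKM of the 10 members in the controls, and 34.2% and 32.6% after Hnrnpk siRNA.

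Kdm5a had 8.91 and 9.21 RPKM after control siRNA and 9.86 and 9.09 RPKM after Hnrnpk siRNA. One treated library lay between the controls, and the log2 change of 0.06 (95% interval -0.11 to 0.23, limma adjusted p = 0.494) was not called. It was 0.01 without Hnrnpk siRNA replicate 1 and 0.12 without Hnrnpk siRNA replicate 2. Removing the length trend gave 0.22 (adjusted p = 0.0117), while the alternatives together spanned adjusted p-values from 0.0117 to 0.996. The exons of Kdm5a share 251 bases with Ccdc77 on the opposite strand, whose own log2 change was -0.07 (SE 0.0726, limma adjusted p = 0.413). The X-linked paralog Kdm5c, not among the 10, fell from 36.1 and 36.8 to 28.1 and 27.1 RPKM (log2 change -0.39, SE 0.0618, limma adjusted p = 0.000345). Kdm5b was 3.36 and 3.16 times Kdm5c in the controls and 3.63 and 3.37 times after Hnrnpk siRNA (exact permutation p = 0.333, the smallest possible). The Y-linked copy Kdm5d was listed at 0.0117 to 0.0283 RPKM over the libraries.

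Of the H3K27 demethylases, Kdm6a was called and Kdm6b was not. Kdm6a (UTX), the X-linked enzyme that works inside the KMT2C and KMT2D complexes, had 13.5 and 13.4 RPKM in the controls and 18.6 and 17.1 RPKM after Hnrnpk siRNA. Both treated libraries were higher, by more than they differed from each other, and the log2 change came to 0.39 (SE 0.0703, limma adjusted p = 0.000781). It was called higher in all 16 alternatives, from 0.31 to 0.50. Its Y-linked homolog Uty, under the level for testing, had 0.412 and 0.460 RPKM in the controls and 0.375 and 0.329 RPKM after Hnrnpk siRNA.

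Kdm6b (JMJD3), an inducible H3K27 demethylase, had 19.5 and 19.0 RPKM in the controls and 18.8 and 16.9 RPKM after Hnrnpk siRNA. The treated libraries were both lower, but the log2 change of -0.11 (95% interval -0.27 to 0.05, limma adjusted p = 0.193) was not called. It was -0.19 without Hnrnpk siRNA replicate 1 and -0.04 without Hnrnpk siRNA replicate 2. Scaling all libraries to the same RPKM sum gave -0.20 (adjusted p = 0.0411), whereas removing the GC trend turned the sign to 0.08, while the alternatives together spanned adjusted p-values from 0.0411 to 0.929. Kdm6a to Kdm6b stood at a ratio of 0.691 and 0.705 in the controls and 0.993 and 1.01 after Hnrnpk siRNA, so the level of Kdm6a came up to that of Kdm6b (exact permutation p = 0.333, the smallest possible). Kdm6b shares 286 exonic bases with its antisense RNA Kdm6bos, which was not analysed here.

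Sums were taken over the 10 members alone, which leaves Jmjd1c out of KDM3, Kdm5c and Kdm5d out of KDM5 and Uty out of KDM6. The sum of Kdm3a and Kdm3b was higher after Hnrnpk siRNA in every scaling tried, at 103 ± 2.28 beside 65.1 ± 0.588 RPKM (SD, n = 2 each), with a ratio of 1.57 with log2 ratios of 0.57 to 0.68 under other scalings and without each library. With Jmjd1c added, a choice made after seeing the data, the sums were 121 ± 3.78 and 90.9 ± 0.769 RPKM (SD, n = 2 each) and the ratio was 1.33. For Kdm5a and Kdm5b the control and Hnrnpk siRNA sums were 128 ± 3.51 and 106 ± 8.01 RPKM (SD, n = 2 each), with a ratio of 0.831, which was 0.815 with Kdm5c and Kdm5d added. The log2 ratio of the KDM5 sum was -0.27, and ranged from -0.35 to -0.19 over the alternatives run for it. The KDM4 sum was 47.8 ± 1.01 and 44.6 ± 0.0137 RPKM (SD, n = 2 each; log2 ratio -0.10), which became -0.19 with equal RPKM sums. For Kdm6a and Kdm6b the sums were 32.8 ± 0.424 and 35.7 ± 2.39 RPKM (SD, n = 2 each; log2 ratio 0.12). That ratio was 0.04 with equal RPKM sums, 0.05 without Hnrnpk siRNA replicate 1 and 0.19 without Hnrnpk siRNA replicate 2. For all 4 families the groups did not overlap, which was also true of 84.7% of all genes tested, taken singly. The exact permutation p was 0.333 for each family, the smallest the design allows. The sum over the 10 members was 273 ± 2.34 and 289 ± 12.7 RPKM (SD, n = 2 each; log2 ratio 0.08). The log2 ratio of that total was 0.03 without Hnrnpk siRNA replicate 1, 0.12 without Hnrnpk siRNA replicate 2, 0.04 under quantile normalization and -0.01 with equal RPKM sums. Within that nearly level total, the share of Kdm3a went from 13.4% and 13.9% to 24.7% and 25.7%.

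**Figure D3:**
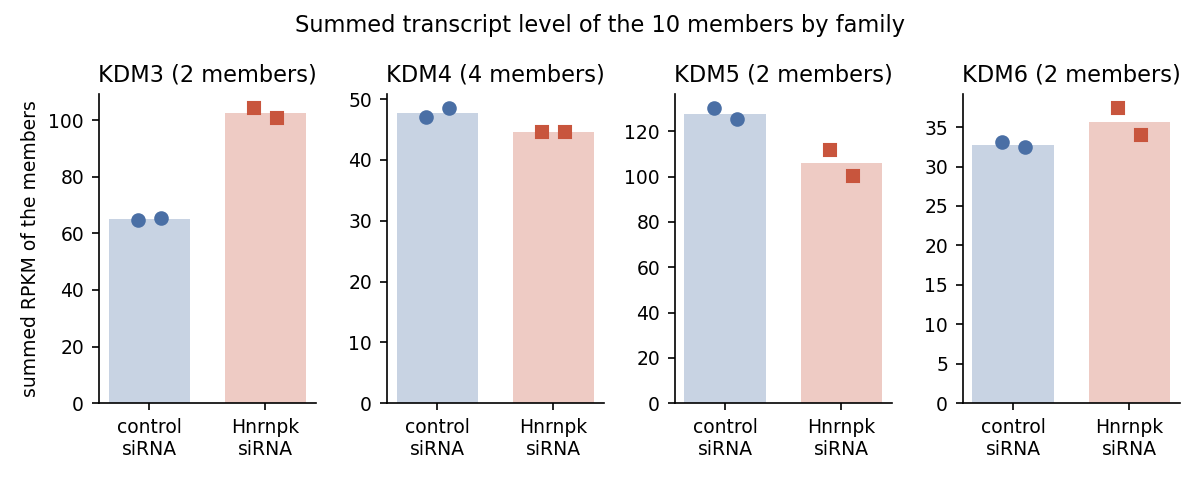
Summed RPKM of those of the 10 members that belong to each family, without Jmjd1c, Kdm5c, Kdm5d and Uty (bars, group means; points, single libraries; axes start at 0 and differ between panels). The KDM3 sum is higher after Hnrnpk siRNA (103 against 65.1 RPKM) and the KDM5 sum lower (106 against 128 RPKM), while the KDM4 and KDM6 sums differ by little.

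The other demethylases and JmjC proteins were a list of 23 genes, of which 22 were matched and 20 tested. In it 5 were called higher and 6 lower, with a median log2 change of -0.01. The counts of this and the following lists stand beside 32.2% called higher and 35.0% called lower among all genes tested. Hr, a JmjC protein of hair follicle and skin (log2 change 0.70), Phf8, an H3K9 and H4K20 demethylase (0.50), and Tyw5, a tRNA hydroxylase (0.39), rose. Besides Jmjd1c and Kdm5c, the H3K4 demethylase Kdm1b fell (-0.44). The amine oxidase Kdm1a (LSD1) fell from 79.4 and 75.8 to 59.1 and 61.4 RPKM (log2 change -0.36, SE 0.0624, limma adjusted p = 0.000642). For Jarid2, a JmjC protein without demethylase activity that works with PRC2, the log2 change was 0.13 (adjusted p = 0.168).

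The methyltransferases that write the same marks went both ways, and their calls stand beside 32.2% higher and 35.0% lower among all genes tested. Of 8 tested H3K9 methyltransferases, 2 were called higher and 3 lower, with a median of -0.08; the total of 5 became 3 without Hnrnpk siRNA replicate 1 and 3 without Hnrnpk siRNA replicate 2. Ehmt2 (G9a), the main writer of the H3K9me2 that Kdm3a removes, had 48.3 and 49.7 RPKM in the controls and 30.3 and 31.9 RPKM after Hnrnpk siRNA (log2 change -0.65, SE 0.0627, limma adjusted p = 1.63e-05). With the GC trend removed its log2 change was -0.43. Kdm3a stood at 0.762 and 0.760 times Ehmt2 in the controls and at 2.43 and 2.26 times after Hnrnpk siRNA. This pair joins the tested member with the largest rise and the listed H3K9 methyltransferase with the largest fall. The exact permutation p of the ratio was 0.333, the smallest possible. Ehmt1 (GLP), the partner of Ehmt2, fell too (-0.20, adjusted p = 0.0189), but lost the call when control replicate 2 (-0.17, adjusted p = 0.0671), Hnrnpk siRNA replicate 1 (-0.20, adjusted p = 0.0890) or Hnrnpk siRNA replicate 2 (-0.21, adjusted p = 0.0790) was left out, and with the length trend removed (-0.10, adjusted p = 0.174). Suv39h1, a writer of H3K9me3 in pericentric heterochromatin, rose from 6.20 and 5.62 to 11.3 and 11.9 RPKM (log2 change 0.91, SE 0.0785, limma adjusted p = 7.77e-06). Prdm16 rose too (0.40). The fall of Setdb2 (-0.25) was not called without Hnrnpk siRNA replicate 1 (adjusted p = 0.0812), without Hnrnpk siRNA replicate 2 (adjusted p = 0.161) or under quantile normalization (adjusted p = 0.0690). Setdb1 itself, with 35.2 and 36.1 RPKM in the controls and 33.3 and 32.4 RPKM after Hnrnpk siRNA, was not called (-0.12, adjusted p = 0.114) except with equal RPKM sums (-0.21, adjusted p = 0.0155).

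Of 8 tested H3K4 methyltransferases, 1 was called higher and 2 lower, with a median of -0.02. Shares over all genes tested, 32.2% higher and 35.0% lower, stand beside this and the next counts. Setd1b, a catalytic subunit of a COMPASS complex, rose (log2 change 0.81), and the monomethyltransferase Setd7 fell (-1.44). All 4 PRC2 genes tested, which write and hold H3K27 methylation, were called, 2 higher (Eed 0.48, Suz12 0.32) and 2 lower (Ezh1 -0.30, Ezh2 -0.18), with a median of 0.07. That count was 2 without Hnrnpk siRNA replicate 2, where Ezh1 had an adjusted p of 0.0550 and Ezh2 of 0.101. Ezh2 also lost the call when control replicate 2 (adjusted p = 0.0602) or Hnrnpk siRNA replicate 1 (adjusted p = 0.0697) was left out. Of 5 H3K36 methyltransferases, 1 was called higher and 2 lower, the largest fall being that of Whsc1 (NSD2; log2 change -0.87), and the median was -0.20. Nsd1 fell as well (-0.48), and the rise of Ash1l (0.29) lost its call without Hnrnpk siRNA replicate 1 (0.22, adjusted p = 0.159) and with equal RPKM sums (0.21, adjusted p = 0.0596).

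Of the 9 genes listed for the complexes that hold Kdm6a, 1 was called higher, 2 lower and 6 were not called, with a median of -0.06. Shares over all genes tested were 32.2% higher and 35.0% lower. Ash2l, a core subunit shared by all KMT2 complexes, rose from 119 and 121 to 173 and 183 RPKM (log2 change 0.56, SE 0.0637, limma adjusted p = 4.24e-05). The falls of Pagr1a (-0.26) and Kmt2c (-0.23) each lost the call when 1 library was left out, Pagr1a without Hnrnpk siRNA replicate 1 (-0.22, adjusted p = 0.0779) and Kmt2c without Hnrnpk siRNA replicate 2 (-0.14, adjusted p = 0.321). Pagr1a was at -0.09 with the GC trend removed (adjusted p = 0.238) and Kmt2c at -0.06 with the length trend removed (adjusted p = 0.463), both without a call, and Kmt2c was not called without the filter or under quantile normalization either. For Kmt2d, the H3K4 methyltransferase of the same complexes, the log2 change was -0.08 (adjusted p = 0.345).

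JmjC enzymes depend on 2-oxoglutarate, and of 15 genes around its metabolism 3 were called higher and 8 lower, with a median log2 change of -0.28. Shares over all genes tested were 32.2% higher and 35.0% lower. Fh1, which clears fumarate, a competitor of 2-oxoglutarate at these enzymes, fell from 82.1 and 79.4 to 49.7 and 52.3 RPKM (-0.66, SE 0.0626, limma adjusted p = 1.47e-05), as did D2hgdh (-0.66), which oxidises D-2-hydroxyglutarate, and Idh3a (-0.41), a subunit of the mitochondrial enzyme that makes 2-oxoglutarate. Glud1, which makes 2-oxoglutarate from glutamate, rose from 92.3 and 91.6 to 135 and 137 RPKM (0.56, SE 0.0600, limma adjusted p = 2.98e-05), and Idh1 rose as well (0.40). The rise of Idh3b (0.21) lost its call in 5 of the 16 alternatives, among them those that left out control replicate 1 (0.19, adjusted p = 0.0716) or Hnrnpk siRNA replicate 2 (0.13, adjusted p = 0.203).

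Kdm3a, Kdm4b and Kdm4c are known as hypoxia-inducible genes, and in these libraries they went 3 ways, with log2 changes of 0.96, 0.01 and -0.28. Of 16 tested genes of a hypoxia-inducible list, 3 were called higher and 9 lower, with a median of -0.42. Shares over all genes tested were 32.2% higher and 35.0% lower. Pdk1, a kinase that restrains pyruvate dehydrogenase, had 34.5 and 32.1 RPKM in the controls and 5.96 and 5.69 RPKM after Hnrnpk siRNA (log2 change -2.42), and Ldha (-1.39) and Hk2 (-0.70), enzymes of glycolysis, fell too. P4ha2, a collagen prolyl hydroxylase (0.83), and Slc2a3, a glucose transporter (0.75), rose, as Kdm3a did. The rise of Bnip3l, a mitophagy receptor (0.32), lost its call without Hnrnpk siRNA replicate 2 (0.23, adjusted p = 0.0632).

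Tcl1, Tfcp2l1 and Zfp57, reported as targets of Kdm3a in embryonic stem cells, and Nanog, reported as a target of Kdm4c, were all 4 called higher, with a median log2 change of 0.61. The share called higher over all genes tested was 32.2%. Tfcp2l1, a transcription factor of naive pluripotency, had 40.9 and 32.9 RPKM in the controls and 106 and 94.2 RPKM after Hnrnpk siRNA (log2 change 1.44, SE 0.101, limma adjusted p = 2.35e-06). Zfp57, a zinc finger protein that protects imprints, rose from 78.3 and 80.3 to 99.3 and 103 RPKM (0.35), and Nanog from 204 and 190 to 353 and 342 RPKM (0.82), beside the fall of Kdm4c. The list is short and was written with earlier results of these data known, so it is no independent evidence of a direction.

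**Figure D4:**
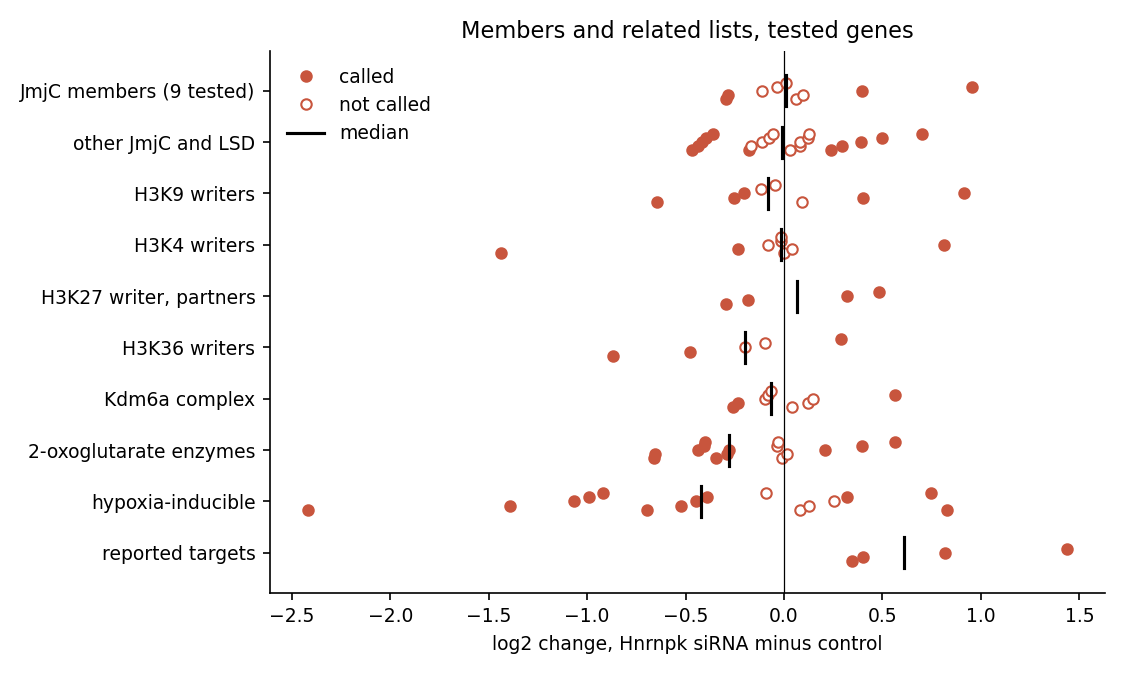
Log2 change (Hnrnpk siRNA minus control, log2(RPKM + 0.5) scale) of the tested genes of each list (1 point per gene; filled, called; vertical bars, medians). The medians of the JmjC members (0.01) and of the other JmjC and LSD genes (-0.01) lie near 0, that of the hypoxia-inducible genes at -0.42 and that of the reported targets at 0.61.

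The genomic neighbours of the members were read for comparison, chosen by position after the values of the members had been seen. They are the closest protein-coding genes with at least 0.5 RPKM on each side in GENCODE M21 (GRCm38), leaving out genes that overlap the member, such as Ccdc77. Of the 20 neighbours, 9 were called higher and 8 lower, where 32.2% of all genes tested were called higher and 35.0% lower. Cwc15, a splicing factor gene 135 bases from Kdm4d (chromosome 9, 14462548 to 14500482, minus strand), rose from 98.1 and 107 to 149 and 148 RPKM (log2 change 0.54), and Kdm4d was higher in both treated libraries too. Reep1, 74571 bases from Kdm3a (chromosome 6, 71588972 to 71632990, minus strand), rose by a log2 change of 0.83. The other neighbour of Kdm3a, Chmp3, at 6363 bases, had 0.28, which lost the call without Hnrnpk siRNA replicate 2 (0.20, adjusted p = 0.0752). Uhrf1, which lies 2576 bases from Kdm4b (chromosome 17, 56326062 to 56402870, plus strand) and is needed to maintain DNA methylation, fell from 124 and 126 to 83.3 and 79.8 RPKM (log2 change -0.61), while Kdm4b was not called. Tmem88, 274 bases from Kdm6b (chromosome 11, 69398508 to 69413675, minus strand), rose (0.57), while Kdm6b was not called. No other transcript shared 100 bases at 95% identity or more with the longest coding transcript of a member, apart from Ccdc77 and Kdm6bos. That search used 1 transcript per member and did not reach the exons that Kdm3b shares with Gm26538.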

How the data were processed

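RNA of 4 TT2 embryonic stem cell libraries was measured. The authors deposited a single table of RPKM values, with genes in rows and libraries in columns. Per the submitters' processing notes, BWA, SAMtools and the build mm9 were used. Versions, counting tool and annotation: not given in the sources used here. Ribosomal RNA depletion and poly(A) selection are both named in the labels. Positions and overlaps come from GENCODE M21 (GRCm38) by Ensembl identifier (92.8% of 22138 found), and no coordinate was converted. Promoters come from RefSeq (GRCm38.p6).

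Values were analysed as log2(RPKM + 0.5), which understates changes of low genes. The 12486 genes averaging 0.5 RPKM or more entered limma 3.58.1, run in R 4.3.3 (mean-variance trend, two-sided, 7.47 prior degrees of freedom, Benjamini-Hochberg over all genes tested, called under 0.05). The procedure was tested on simulated data in which far fewer genes changed than were called here. That test does not give error rates for these data. Sums and ratios were compared by exact permutation, two-sided. Transcripts were compared with BLAST 2.17.0. Relative depth was read from the most frequent ratio of low values between libraries. The unit used for Kdm4d came from single-exon genes and was not tied to a known number of reads. The alternatives, 16 in all, were other added values, filters, scalings, a fit without the trend, removal of GC or length trends, a replicate block, and leaving out each library; family sums with further paralogs were added after seeing the data.

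The members and lists were chosen with earlier results of these data known. Named genes are the 10 members, Hnrnpk, up to 3 called genes per direction and list by lowest p, and direct paralogs; Kdm1a, Jarid2, Tcl1, the markers, Setdb1, Kmt2d, Ccdc77 and the neighbours were added outside this rule after values were seen. Xist, Jmjd7, Tcstv1 and Tcstv3 were not analysed here.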

Additional observations from a re-analysis of the deposited data

How the results depend on the processing

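Kdm3a, Kdm4c, Kdm5b and Kdm6a kept their direction and their call in all 16 alternatives. The number of members called higher went from 2 to 4 with the GC trend removed, to 4 with the length trend removed and to 4 with the replicate block and the GC trend removed together; the cause was not tested. The number called lower was 2 to 3, and the number called in all was 4 to 6. Leaving out each library in turn left 4 called. The sign of members that were not called turned as follows. Kdm4a went to 0.0445 without the GC trend (0.0445 with the block as well) and 0.0285 without the length trend, Kdm4b to -0.0727 with equal RPKM sums, Kdm5a to -0.0232 with equal RPKM sums and to -0.000366 without the GC trend (-0.000366 with the block as well), and Kdm6b to 0.0769 without the GC trend (0.0769 with the block as well) and 0.0064 without the length trend. Leaving out 1 library at a time, Kdm4a lay between -0.124 and 0.0573 and Kdm4b between -0.0729 and 0.0972, while Kdm5a lay between 0.0051 and 0.116 and Kdm6b between -0.186 and -0.0389, with no turn of sign. Adding the paralogs outside the 10 members gave log2 ratios of 0.41 for KDM3, -0.30 for KDM5 and 0.12 for KDM6, in the same directions. The log2 ratio of the summed RPKM of all 10 members turned to -0.0079 with equal RPKM sums. The list of Kdm6a complex genes had 5 calls in place of 3 with the length trend removed. Leaving out each library gave 3 to 5 calls among H3K9 methyltransferases and 2 to 4 among the PRC2 genes.

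Replicate numbers in the labels are shared between the groups. Deviations of same-numbered libraries correlated at 0.0267 across genes, which cannot show whether those libraries share a day, culture or batch. With the replicate block, 4162 genes were called higher and 4460 lower, in place of 4025 and 4371, and 4 members were called. Over all alternatives 6792 to 9660 genes were called. With 2 libraries a group, the spread of each gene is largely borrowed from other genes. Depth limits only Kdm4d among the members.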
